A study of Mus musculus with 6 samples.

Results

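The 10 CXC chemokines described here are Cxcl1, Cxcl2, Cxcl5, Cxcl9, Cxcl10, Cxcl12, Cxcl14, Cxcl15, Cxcl16 and Cxcl17, all 10 of them measured among 22180 mouse genes. They were taken by name, with the rule that a probe set had to name that gene alone, and each had exactly 1 such probe set. RNA of 3 mammary tumors (numbers 23, 24 and 25) was compared with RNA of 3 preparations of sorted wild-type luminal mammary epithelial cells (numbers 1, 2 and 4), on 6 expression arrays. The tumors arose in females of the genotype Trp53L/L;Brca1L/L, months after the mammary ducts had received Ad-K8-Cre, an adenovirus in which the keratin 8 promoter drives Cre recombinase. Per the labels they are null for both genes, Brca1 encoding a DNA repair protein and Trp53 the tumor suppressor. The wild-type cells came from Rosa26-Stop-YFP reporter females given the same virus, and were collected by sorting YFP+ luminal cells 10 to 14 days later. Both groups were therefore given the same virus, cell sorting is mentioned only for wild type, and no ages are given. Time since the virus was 10 to 14 days in wild type and months in tumors. In every difference below, this time and sorting therefore cannot be told apart from tumor growth. Whether the 3 tumors grew in separate mice is not labelled, and if they did not, p-values measure in part the spread within an animal.

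CXC chemokines are small secreted proteins that carry a pair of cysteines separated by 1 residue and guide leukocytes through G protein-coupled receptors. Members with a glutamate-leucine-arginine (ELR) motif before those cysteines draw neutrophils through Cxcr2, whereas Cxcl9 and Cxcl10 lack it, are induced by interferons and draw T and NK cells through Cxcr3. In the mammary gland they are made by epithelium, stroma and resident leukocytes, and several of the ELR members are classical targets of NF-kB.

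The promoter sequences of Cxcl1, Cxcl9 and Cxcl15, which fell in tumors, are shown with those of Cxcl2 and Cxcl10, the close relatives of Cxcl1 and Cxcl9. Inducing factors can act on such stretches, but binding was not measured. Each run holds the 250 bases before the annotated start, 5′ to 3′ on the gene's own strand, from RefSeq on GRCm38.p6, and capitals mark the motifs searched on both strands. The windows lie at chr5:90890995-90891244 (plus strand), chr5:90903649-90903898 (plus strand), chr5:92328080-92328329 (minus strand), chr5:92348890-92349139 (minus strand) and chr5:90794284-90794533 (plus strand).
Cxcl1: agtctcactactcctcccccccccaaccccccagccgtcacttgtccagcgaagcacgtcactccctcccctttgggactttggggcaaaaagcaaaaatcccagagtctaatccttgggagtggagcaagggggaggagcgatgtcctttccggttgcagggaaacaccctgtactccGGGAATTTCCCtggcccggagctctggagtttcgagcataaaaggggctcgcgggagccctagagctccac
Cxcl2: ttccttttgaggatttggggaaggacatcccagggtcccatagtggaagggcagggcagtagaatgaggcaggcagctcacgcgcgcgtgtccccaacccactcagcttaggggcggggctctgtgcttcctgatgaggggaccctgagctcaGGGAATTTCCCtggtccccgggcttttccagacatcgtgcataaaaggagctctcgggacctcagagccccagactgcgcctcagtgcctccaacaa
Cxcl9: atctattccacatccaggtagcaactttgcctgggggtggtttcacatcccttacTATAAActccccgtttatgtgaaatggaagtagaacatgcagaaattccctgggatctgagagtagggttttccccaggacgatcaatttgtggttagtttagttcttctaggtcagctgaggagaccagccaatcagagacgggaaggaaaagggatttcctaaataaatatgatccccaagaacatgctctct
Cxcl10: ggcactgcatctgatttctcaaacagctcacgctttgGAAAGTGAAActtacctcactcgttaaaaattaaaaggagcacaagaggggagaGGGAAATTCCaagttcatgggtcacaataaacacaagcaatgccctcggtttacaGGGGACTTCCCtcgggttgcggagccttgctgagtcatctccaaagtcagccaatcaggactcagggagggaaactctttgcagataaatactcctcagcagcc
Cxcl15: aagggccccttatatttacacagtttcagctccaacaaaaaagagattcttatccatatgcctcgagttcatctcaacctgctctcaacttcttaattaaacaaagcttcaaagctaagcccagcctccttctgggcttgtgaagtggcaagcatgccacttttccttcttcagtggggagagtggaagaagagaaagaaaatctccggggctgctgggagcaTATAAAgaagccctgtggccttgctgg

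The 4 motifs searched were the NF-kB consensus, the GAS element bound by STAT factors (TTCNNNGAA), a pair of ISRE half-sites bound by interferon regulatory factors (GAAANNGAAA) and the TATA box (TATAAA). They occur in 7.25%, 7.02%, 2.98% and 12.4% of 32851 promoter windows of this length. Cxcl1 and Cxcl2 share the run GGGAATTTCCC, which holds an overlapping NF-kB match on each strand and begins 71 bases before the start in Cxcl1 and 97 bases before it in Cxcl2. Cxcl10 has NF-kB matches beginning 159, 104 and 103 bases before the start, the last 2 of them overlapping, and an ISRE pair at 213. In Cxcl9 only TATAAA was found, 195 bases before the start, and in Cxcl15 only TATAAA, at 27. A match says only that the letters are there, and a missing match only that they are not in this window. Cxcl12, with no match, and Cxcl14 also had an entry in the table, and Cxcl5, Cxcl16 and Cxcl17 did not. In the RefSeq order of protein-coding genes on chromosome 5, Cxcl5, Ppbp, Pf4, Cxcl3, Cxcl15, Cxcl1 and Cxcl2 follow each other. Cxcl9 and Cxcl10 flank Art3 in a second group, and Cxcl11 has no protein-coding entry.

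The arrays had probe set medians of 3.25 to 3.56 in tumors and 3.51 to 3.59 in wild-type cells on the log2 scale. No detection calls were used, so the 95th percentile of 1105 olfactory receptor genes on each array served as a background mark, which was 3.24 to 3.45 on tumor arrays and 3.70 to 3.86 on wild-type arrays. The mark is higher on wild-type arrays, so a gene under it on all arrays, such as Ifng, differs by -0.408 once raised to it. The Brca1 probe set read 3.88 ± 0.19 on tumor arrays and 2.93 ± 0.11 on wild-type arrays (SD, n = 3 each). All wild-type values of Brca1, 2.81 to 2.99, were under the mark. Which exons were deleted and where the probes lie is not labelled. The Brca1 reading therefore checks nothing about the groups, and Trp53 had no probe set of its own. The luminal keratin gene Krt8 read 7.76 to 9.41 in tumors and 10.31 to 11.12 in wild-type cells, above the mark on all 6 arrays. A pair of stromal genes, picked after their values were seen, was also high on wild-type arrays, the proteoglycan gene Dcn at 10.10 to 11.11 and the fatty acid binding protein gene Fabp4 at 8.61 to 10.84. Their lists did not follow as a whole, since 11 of 14 fibroblast and matrix genes had a positive difference and 4 of 7 adipocyte genes lay under the mark on every array.

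Against wild-type luminal cells, tumors had lower Cxcl15 (by 5.99 log2 units), Cxcl17 (by 3.33), Cxcl9 (by 3.22) and Cxcl1 (by 1.83), and no CXC chemokine was called higher. The test was limma with Benjamini-Hochberg adjustment over 22180 genes and a threshold of 0.05. It called 4 of 10 members, all lower, where it called 3.91% of all genes, 1.39% lower and 2.52% higher. The median difference of the 10 members was -1.60, against -0.12 over all genes. These 10 are part of the family and were chosen with earlier results of these data known. Of the CXC chemokines outside them, Cxcl3 (0.12), Pf4 (1.25), Ppbp (0.33), Cxcl11 (-0.45) and Cxcl13 (-0.02) did not pass. The groups did not overlap for 7 members, 6 lower and 1 higher in tumors, where 36.4% of all genes did not overlap and 22.4% lay lower without overlap. The other 6 members did not pass, with differences from -1.73 (Cxcl14) to 0.77 (Cxcl5).

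**Figure D1:**
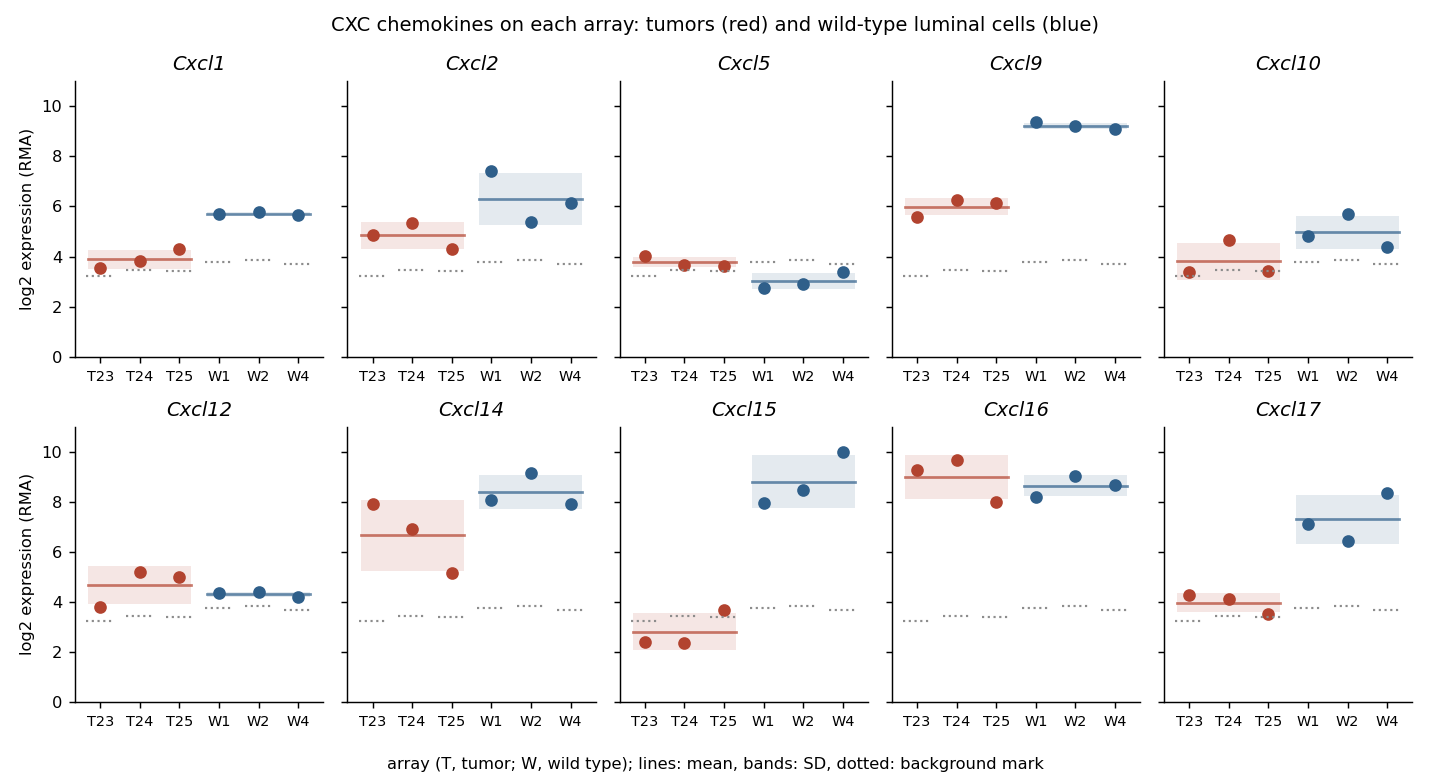
Log2 expression (RMA) of the 10 CXC chemokines on each array, tumors 23, 24 and 25 (T, red) at the left of each panel and wild-type cells 1, 2 and 4 (W, blue) at the right. Lines are means, bands SD (n = 3) and dotted segments the background mark of each array. Cxcl9, Cxcl15 and Cxcl17 leave a gap of over 2 log2 units between the groups, and Cxcl16 overlaps.

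**Figure D2:**
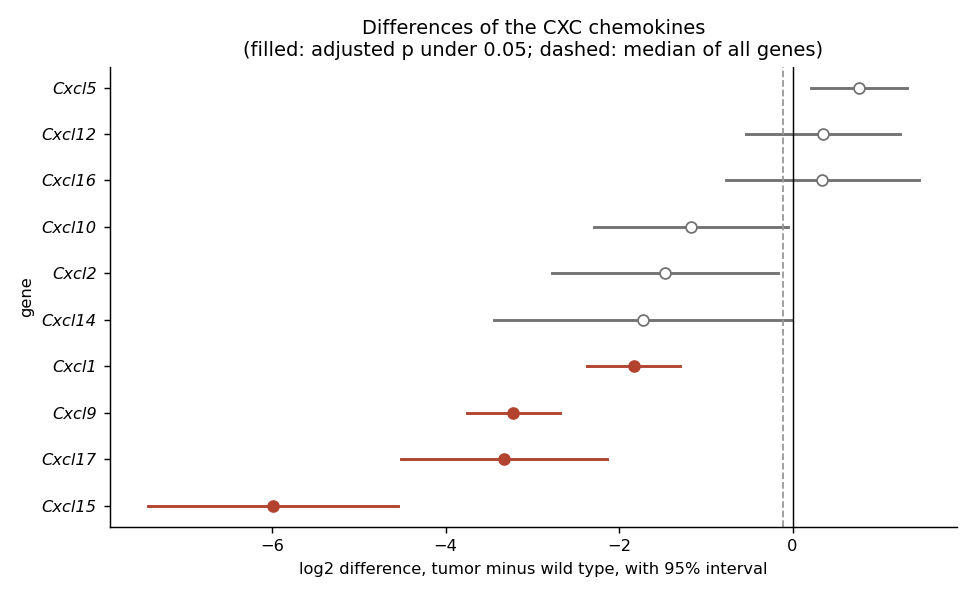
Difference in log2 expression, tumor minus wild type, of each CXC chemokine with its 95% interval from limma (horizontal axis). Filled red points passed the test, and the dashed line is the median of all genes at -0.12. Cxcl15 lies at -5.99, and the intervals of Cxcl12 and Cxcl16 include 0.

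Among the ELR members, Cxcl1, a neutrophil attractant first described as a growth-regulated gene, was 3.56, 3.81 and 4.29 in tumors 23, 24 and 25, against 5.70, 5.79 and 5.66 in wild-type cells 1, 2 and 4. All 3 tumors lay below all 3 wild-type arrays, which were within 0.14 of each other. Cxcl1 fell by 1.83 ± 0.23 log2 units (SE), or 3.56-fold (limma, adjusted p of 0.018). The call depended on single arrays, since its adjusted p in limma was 0.052 without tumor 23, 0.065 without wild-type 1, 0.062 without wild-type 2 and 0.073 without wild-type 4. The difference itself kept to -2.03 to -1.67 over all 6 sets that leave out 1 array.

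Cxcl2, its neighbour and close relative, was 4.87, 5.35 and 4.30 in tumors, against 7.42, 5.37 and 6.15 in wild-type cells. Wild-type 1 was high, and the groups were only 0.017 apart, between tumor 24 and wild-type 2. The difference was -1.47 ± 0.54 (SE), with a 95% interval of -2.78 to -0.17 and an adjusted p of 0.16 in limma. Probes for such close relatives can share signal, and how much was not tested.

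Cxcl5, which signals through the same receptor, was 4.03, 3.67 and 3.64 in tumors, against 2.76, 2.91 and 3.39 in wild-type cells. On all 3 wild-type arrays Cxcl5 was below the background mark, and on all 3 tumor arrays above it. The difference was 0.77 ± 0.23 (SE) at an adjusted limma p of 0.11, and 0.008 once values under the mark were raised to it. Part of that change follows from the higher mark on wild-type arrays. With all 3 wild-type values under the mark and no call, the direction of Cxcl5 is not told from background.

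Cxcl15, known in mice as lungkine for its expression in lung epithelium, was 2.39, 2.38 and 3.67 in tumors, against 7.96, 8.46 and 10.00 in wild-type cells. Its lowest wild-type array exceeded its highest tumor array by 4.29. Cxcl15 fell by 5.99 ± 0.60 (SE) at an adjusted limma p of 0.013, and it passed in all 6 sets without 1 array (adjusted p of 0.020 to 0.048). Tumors 23 and 24 were under the mark, and with tumor values raised to it the difference was -5.35. Both groups varied, over 1.30 in tumors and 2.04 in wild-type cells. Tumor 25, the only one above the mark, was also the highest tumor for Cxcl1, but the lowest for Cxcl2.

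Of the interferon-inducible members, Cxcl9, a ligand of Cxcr3, was 5.59, 6.24 and 6.15 in tumors, against 9.35, 9.19 and 9.10 in wild-type cells. Each group was tight, within 0.65 in tumors and 0.25 in wild-type cells, and they were 2.86 apart. Cxcl9 fell by 3.22 ± 0.22 (SE), 9.32-fold with a 95% interval of 6.42 to 13.5, and an adjusted p of 0.0063 in limma. It ranked 11th of the 22180 genes by p and passed in all 6 sets without 1 array (adjusted p of 0.014 to 0.041). Every tumor value stayed above the background mark.

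Cxcl10, the other Cxcr3 ligand in this set, was 3.37, 4.64 and 3.41 in tumors, against 4.83, 5.70 and 4.40 in wild-type cells. Tumor 24 lay above wild-type 4, so the groups overlapped, and tumors 23 and 25 lay close to the mark. The difference was -1.17 ± 0.47 (SE), with a 95% interval of -2.29 to -0.05 and an adjusted p of 0.18 in limma.

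Cxcl17, a mucosal protein counted among the CXC chemokines and linked to macrophage attraction, was 4.26, 4.14 and 3.53 in tumors, against 7.10, 6.45 and 8.37 in wild-type cells. All 3 tumors lay below the wild-type arrays, by at least 2.18. Cxcl17 fell by 3.33 ± 0.50 (SE) at an adjusted limma p of 0.026 and a 95% interval of -4.52 to -2.14. The adjusted p in limma was 0.066 without tumor 23, 0.067 without tumor 25, 0.086 without wild-type 1 and 0.065 without wild-type 4.

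Cxcl14, an ELR-lacking chemokine of epithelia and stroma, was 7.92, 6.93 and 5.14 in tumors, against 8.07, 9.17 and 7.92 in wild-type cells. The tumors differed among themselves by 2.77, the widest tumor range of the 10 members, with tumor 25 low and tumor 23 within 0.009 of wild-type 4. The difference was -1.73 ± 0.72 (SE) at an adjusted limma p of 0.19, and it was -0.97 without tumor 25 and -2.35 without tumor 23. Tumor 25 was also low in the collagen gene Col1a1, at 4.98, where tumors 23 and 24 were at 7.22 and 8.74, against 6.13, 6.42 and 4.86 in wild-type cells. The fibroblast and matrix list mean was 5.68 in tumor 25, against 6.10 and 6.68 in tumors 23 and 24. Its genes were split, since Fbln2 (9.91), Pdgfra (6.97) and Col6a3 (6.55) were highest in tumor 25 among the tumors.

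Cxcl12, the Cxcr4 ligand that retains leukocytes and progenitors in their niches and is made mostly by stroma, was 3.82, 5.21 and 4.99 in tumors, against 4.37, 4.38 and 4.20 in wild-type cells. Tumor 23 lay below and tumors 24 and 25 above all wild-type arrays. The difference was 0.36 ± 0.37 (SE), with a 95% interval of -0.53 to 1.25 and an adjusted p of 0.54 in limma. Cxcl16, a transmembrane chemokine and scavenger receptor that is shed by Adam10 and binds Cxcr6, was 9.28, 9.68 and 7.98 in tumors, against 8.21, 9.04 and 8.66 in wild-type cells. Its groups overlapped, tumor 25 being the lowest of all 6 arrays, and the difference was 0.35 ± 0.47 (SE), with a 95% interval of -0.77 to 1.46. The difference of Cxcl16 was -0.005 without tumor 24, and that of Cxcl12 ran from 0.09 (without tumor 24) to 0.78 (without tumor 23). Housekeeping centring, which lowers every gene, put Cxcl12 at -0.26 and Cxcl16 at -0.28, both above its all-gene median of -0.74.

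Along the larger group on chromosome 5 the differences were 0.77 for Cxcl5, 0.33 for Ppbp, 1.25 for Pf4, 0.12 for Cxcl3, -5.99 for Cxcl15, -1.83 for Cxcl1 and -1.47 for Cxcl2. Of the 7 other CXC, XC and CX3C chemokines measured, none passed, and their median difference was 0.12. Pf4, a platelet and megakaryocyte chemokine, was at 1.25 ± 0.60 (SE) and Cxcl11 at -0.45 ± 0.20, with adjusted p of 0.23 and 0.21 in limma. Cxcl11 is known as a Cxcr3 ligand, but had no protein-coding entry in the RefSeq gene order used here.

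Of the 8 receptors, only Ackr1, a decoy receptor that binds chemokines without classical signalling, passed, where 3.91% of all genes did. It fell to 2.61 ± 0.22 in tumors, against 3.90 ± 0.41 in wild-type cells (SD, n = 3 each, adjusted p of 0.048 in limma). Ackr1 was below the background mark in all 3 tumors and 1 wild-type array, and the call was lost whichever array was left out (adjusted p of 0.068 to 0.13 in limma), after quantile normalization again (0.070) and with cyclic loess (0.080). Cxcr4, the receptor of Cxcl12, was 8.06, 7.67 and 9.30 in tumors, against 8.27, 8.32 and 7.81 in wild-type cells, a difference of 0.21 ± 0.43 (SE). Ackr3, which scavenges Cxcl12, was at 0.54 ± 0.38. For the ELR ligands, Cxcr2 was at 0.89 ± 0.29, with 2 wild-type values under the mark, and Cxcr1 at -0.63 ± 0.19, with 2 tumor values under it (adjusted p of 0.13 and 0.11 in limma). Cxcr3, the receptor of Cxcl9 and Cxcl10, was 3.94, 4.17 and 3.72 in tumors, against 4.06, 3.67 and 4.28 in wild-type cells, close to the mark throughout. Cxcr5 differed by 0.20 ± 0.16 and Cxcr6, the receptor of Cxcl16, by -0.13 ± 0.25. Cxcr6 lay under the mark on 5 of 6 arrays.

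The list of the inflammatory route to ELR chemokines mixes inducers with targets, and Nfkb1 was not measured. Of its 19 measured genes 3 fell and none rose, where 1.39% of all genes were called lower. The list median was -0.53. Il6, an inflammatory cytokine, was 3.85, 2.39 and 2.20 in tumors, against 7.65, 6.49 and 6.52 in wild-type cells, and fell by 4.07 ± 0.53 (SE, adjusted p of 0.019 in limma), with tumors 24 and 25 under the mark. With values raised to the mark its difference was -3.32. Csf3, the neutrophil growth factor, was 4.38, 3.91 and 4.53 in tumors, against 6.25, 7.21 and 5.87 in wild-type cells, and fell by 2.17 ± 0.37 (adjusted p of 0.037 in limma). Nfkbia, the NF-kB inhibitor that NF-kB itself induces, fell by 1.59 ± 0.24 (adjusted p of 0.027 in limma). These 3, named because they passed, lay lower in every tumor than in any wild-type array, as 22.4% of all genes did. Csf3 lost its call whichever array was left out (adjusted p of 0.053 to 0.10), Nfkbia in every set but that without tumor 24 (0.054 to 0.091), and Il6 without wild-type 1, 2 or 4 (0.062, 0.061 and 0.073). The inducer Il1b was at 7.88, 8.45 and 5.61 in tumors, against 5.62, 5.86 and 4.73 in wild-type cells. Its difference of 1.91 ± 0.74 (SE) missed the threshold (limma, adjusted p of 0.17). The inducer Tnf lay the other way, at -1.01 ± 0.42 (SE), and also missed it (limma, adjusted p of 0.19). Of the 19 genes, 15 had a negative difference and 4 a positive one.

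Of the interferon-gamma route to Cxcl9 and Cxcl10, 1 of 20 measured genes passed, where 3.91% of all genes did. Ido1, a tryptophan-degrading enzyme induced by interferon-gamma, was 4.76, 3.98 and 4.22 in tumors, against 6.79, 7.65 and 8.69 in wild-type cells. It fell by 3.39 ± 0.49 (SE), close to the size seen for Cxcl9, with an adjusted p of 0.024 in limma, which was lost without tumor 23 (0.059), tumor 25 (0.064), wild-type 2 (0.078) or wild-type 4 (0.067). The other 19 did not pass and the list median was -0.34. Irf1, the interferon-induced transcription factor, was at -0.09 ± 0.23, the peptide transporter Tap1 at -0.60 ± 0.43 and the GTPase Igtp at -0.33 ± 0.19. Ifng itself lay under the background mark on all 6 arrays.

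Of 14 proteases and binding partners, 3 rose and none fell, where 2.52% of all genes were called higher. The list median was 0.34. Mmp12, the macrophage elastase, rose by 4.21 ± 0.69 (SE), the versican gene Vcan, whose proteoglycan binds chemokines, by 2.05 ± 0.26 and the gelatinase Mmp2 by 1.45 ± 0.27, with adjusted p of 0.033, 0.018 and 0.042 in limma. Mmp12 was under the mark on 2 wild-type arrays, and with values raised to it the difference was 3.55. Each lost its call in some of the sets without 1 array, over which adjusted p reached 0.11 for Mmp12, 0.081 for Vcan and 0.12 for Mmp2. Mmp2 also missed the threshold under quantile normalization again (0.095), cyclic loess (0.082) and housekeeping centring (0.11). The sheddases of Cxcl16 did not pass, Adam10 at -0.96 ± 0.36 and Adam17 at 0.57 ± 0.39.

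**Figure D3:**
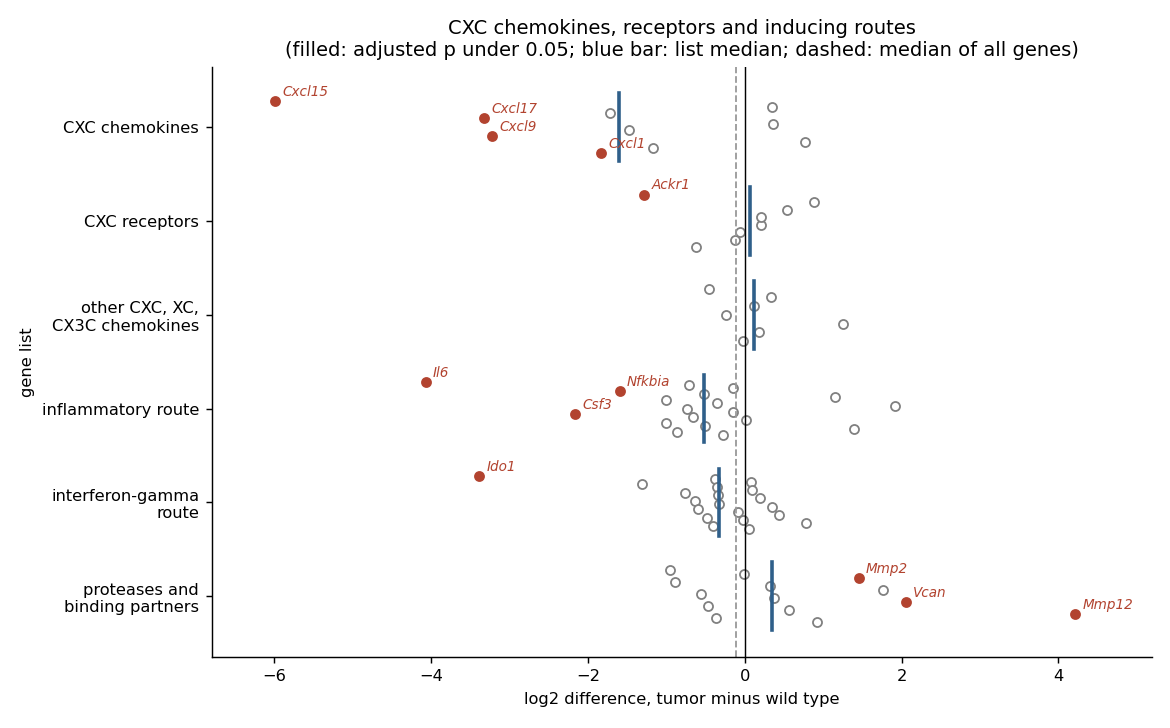
Difference in log2 expression, tumor minus wild type (horizontal axis), of each gene in the CXC chemokine list and in 5 lists of its pathway. Filled red points with names passed limma's test, blue bars are list medians and the dashed line is the median of all genes. The CXC chemokine median lies at -1.60, those of the receptors and of the other chemokines at 0.07 and 0.12.

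In bulk RNA, fewer cells of a type and less RNA per cell cannot be told apart, so the marker lists of the cells that make or follow these chemokines are given beside the members. Sorting is mentioned only for wild-type cells, so sorting and tumor growth cannot be told apart. This holds for these lists, the members and the pathway lists alike. Over all genes 3.91% passed, 2.52% higher and 1.39% lower. Macrophage markers lay higher in tumors, with a list mean of 5.98 to 6.56, against 4.24 to 4.86 in wild-type cells. Of 12 measured, 6 rose and none fell, led by C1qa at 4.09 ± 0.37 and C1qb at 4.03 ± 0.37 (SE, adjusted p of 0.011 each in limma), Csf1r at 2.67 and Cd68 at 1.78, while the call of Cd68 was lost whichever array was left out, after quantile normalization again (0.090) and with cyclic loess (0.088). Neutrophil markers had a list mean of 3.60 to 4.11 in tumors and 3.53 to 4.18 in wild-type cells. Of these 12, Mpo, Elane, Camp, Retnlg and Mmp8 lay under the mark on all arrays, and only Ltf passed, a secretory epithelial product as well, falling by 3.54. Its call was lost without tumor 23 (0.052) or wild-type 1, 2 or 4 (0.066, 0.065 and 0.071), and that of Csf1r without tumor 23 (0.053) or wild-type 1 (0.058). T and NK cell markers had a list mean of 3.24 to 3.51 in tumors and 3.61 to 3.86 in wild-type cells. These means lie close to the background mark of each group, 3.24 to 3.45 and 3.70 to 3.86. Their difference is therefore not told from that of the mark. None of the 14 measured passed, and Cd8a, Gzmb, Klrb1c, Ncr1 and Klrd1 were under the mark on all arrays. Fibroblast and matrix markers had a list mean of 5.68 to 6.68 in tumors and 5.25 to 5.77 in wild-type cells, and of 14 measured Pdgfrb and Fbln2 rose and none fell. The call of Fbln2 was lost whichever array was left out (adjusted p of 0.052 to 0.13 in limma), and that of Pdgfrb without tumor 25 (0.086) or wild-type 1, 2 or 4 (0.11, 0.098 and 0.11). Endothelial markers were highest in tumor 25, with a list mean of 5.26, while tumors 23 and 24 were at 4.23 and 4.31 and wild-type cells at 4.43 to 4.995. Of 10 measured only Vwf passed, falling by 1.01, a call kept only without tumor 24 among the 6 sets. The part of these cells in the values of Cxcl12 and Cxcl14 was not tested.

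Luminal markers lay lower in tumors, with a list mean of 6.07 to 6.86, against 7.56 to 8.11 in wild-type cells. Of 15 measured, 3 fell, the hormone receptor genes Esr1 (by 2.67) and Pgr (by 2.60) and the factor Foxa1 (by 3.07), and 2 rose, Kit (2.42) and Elf5 (1.90). Pgr was under the mark in all 3 tumors and Elf5 on all 3 wild-type arrays, and with values raised to it the differences were -1.79 and 1.67. The list median of -1.39 was near that of the CXC chemokines, and its part in their values was not tested. Apart from Esr1 these calls were lost in 3 or more of the 6 sets without 1 array. Skeletal muscle transcripts stood out in tumor 23, with a list mean of 8.59, and in tumor 25, at 5.78, while tumor 24 was at 3.66 and wild-type cells at 3.59 to 3.70. Without tumor 23 the differences of the 4 called members were -1.67 for Cxcl1, -3.02 for Cxcl9, -5.78 for Cxcl15 and -3.47 for Cxcl17, and Cxcl1 and Cxcl17 then missed the threshold as given above. Keratinocyte markers had a list mean of 4.83 in tumor 24, against 2.92 to 3.25 in the other tumors and 3.58 to 3.91 in wild-type cells. Only part of the list was high there, as Dsg3 (8.52), Krt6a (8.45) and Ivl (5.65). Krt1 (3.29), Lor (2.73) and Flg (2.62) were under the mark in tumor 24, and Krt6a was at 8.61 in wild-type 4. Without tumor 24 all 4 called members passed.

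For each member whose values spanned at least 2 log2 units over the 6 arrays, the 2 genes with the most similar centred values were sought among all genes, by root mean square (RMS) difference. Cxcl9 was closest to Dgat2 and Tlcd4 (RMS of 0.19 and 0.25 log2 units), and Cxcl1 to Dyrk2 and Slc7a2 (0.21 and 0.22). Cxcl15 was closest to Tspan1 and R3hdml (0.54 and 0.59) and Cxcl17 to Mboat1 and Upk3a (0.30 and 0.36). The differences of these 8 genes were -5.61 to -1.48, which follows from how they were chosen. Cxcl10 was closest to Hc and Defa34 (0.22 and 0.23), Cxcl2 to Cyp3a25 and Ppp1r3e (0.32 and 0.33) and Cxcl14 to Tmsb4x and Rnf125 (0.44 and 0.48). Pearson's r for these 14 pairs was 0.926 to 0.995 over 6 arrays that share a 2-group contrast, and is a description only.

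**Figure D4:**
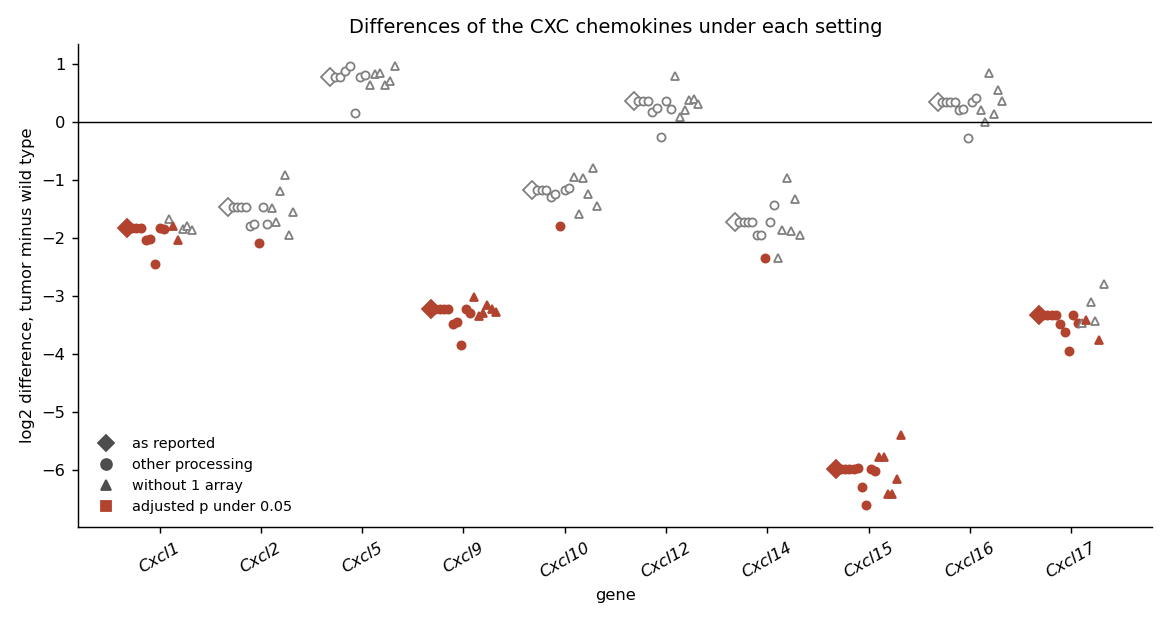
Difference in log2 expression, tumor minus wild type (vertical axis), of each CXC chemokine as reported (diamonds), under other processing (circles) and without 1 array (triangles). Red filled symbols had an adjusted p under 0.05 in limma. Cxcl9 and Cxcl15 are filled under every setting shown, Cxcl1 and Cxcl17 lose the call without some arrays, and under housekeeping centring, which lowers all genes, Cxcl12 and Cxcl16 lie below 0.

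The 4 members that fell kept their direction in all settings that tested them. Cxcl9, Cxcl15 and Cxcl17 passed in all 9 other processing settings and Cxcl1 in all 8 that kept it, as the plot of differences under each setting shows. With 1 probe set for each member, the probe set choices could not change its values. The filters and the other prior could not change its difference, only its p-value. Among the processing settings, only the scaling choices and array weights could alter the difference.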

How the data were processed

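Total RNA of 3 tumors and 3 sorted wild-type preparations was amplified (NuGEN Ovation V2) and biotin-labelled, per the labels' protocols. The authors deposited 1 log2 value for each probe set on each array. RMA, which corrects background, normalizes quantiles and summarizes probes, and oligo are named in the submitters' processing notes. No version, annotation or build was given in the sources used here. Differences near background are compressed by RMA.

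Of 41345 probe sets, 23521 named 1 gene in the platform annotation, 1814 named several and 16010 none, and 23328 were matched by Entrez identifier to RefSeq (GRCm38.p6). Each of 22180 genes was represented by its probe set with the highest mean. The 2 groups were fitted in limma 3.58.1 under R 4.3.3 (lmFit, eBayes), two-sided, without covariates or filter, with Benjamini-Hochberg adjustment over all genes. Differences (tumor minus wild type) carry limma's moderated SE, and group levels are means ± SD. The fit was checked on simulated data. Probe sets with several genes were left out, no batch is labelled, and with 6 arrays the precision is limited by their number.

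Named genes were all members and receptors, the called genes of each list (at most 4), otherwise 2 with the largest difference, and the most similar genes. Some further genes were named after their values were seen, as inducers, receptors' partners or markers. The members and lists were chosen with earlier results of these data known. Alternatives were filters on dim genes, other probe set and scaling choices, another prior, array weights and leaving out each array.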

Additional observations from a re-analysis of the deposited data

How the results depend on the processing

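The number of genes past the threshold was 867, against 1324 with array weights and 7523 after centring on 13 measured housekeeping genes, and it ran from 72 (without wild-type 4) to 1200 (without tumor 24) when single arrays were left out. Fewer arrays also leave fewer degrees of freedom. Of the calls, 64.5% were higher in tumors, against 44.3% with quantile normalization again, 52.3% with cyclic loess and 7.28% with housekeeping centring. The all-gene median was -0.12 as reported, -0.03, 0.004 and -0.74 in that order. Relative to those medians the CXC chemokines that passed stayed lower. Called CXC chemokines numbered 4, and 2 to 4 without single arrays, the lower count without tumor 23, wild-type 1 or wild-type 4. After housekeeping centring 7 passed, with 33.9% of all genes: Cxcl2 (-2.09), Cxcl10 (-1.79) and Cxcl14 (-2.35) were added, and Cxcl12 (-0.264) and Cxcl16 (-0.275) lay below 0 with the shift of all genes. Without single arrays the difference ran from -2.03 to -1.67 for Cxcl1, from -3.76 to -2.80 for Cxcl17 and from -0.00456 to 0.843 for Cxcl16, and Cxcl1 and Cxcl17 each passed in 2 of 6 sets. The filter at a mean of at least 5 removed Cxcl1, Cxcl5, Cxcl10 and Cxcl12. Apart from the scaling, the causes of these changes were not tested. Of the recomputed list medians, 236 moved by less than the spread between arrays and 48 by more, 17 of these under housekeeping centring. Values near or under the background mark limit Cxcl5, Cxcl10 and the tumor values of Cxcl1, Cxcl15 and Cxcl17.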

Other observations

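Among 17 measured CC chemokines, the related family whose first cysteines adjoin, 1 rose and none fell, where 2.52% of all genes were called higher. Their median difference was -0.13. Ccl25, a thymic and intestinal chemokine that attracts T cells through Ccr9, was 5.58, 6.22 and 6.35 in tumors, against 4.53, 4.71 and 4.83 in wild-type cells. It rose by 1.36 ± 0.25 log2 units (SE, adjusted p of 0.041 in limma), but missed the threshold whichever array was left out (adjusted p of 0.050 to 0.12) and after quantile normalization again (0.077), cyclic loess (0.063) and housekeeping centring (0.098). Ccl5, a T cell attractant, was 5.61, 6.63 and 5.49 in tumors, against 8.99, 6.64 and 8.12 in wild-type cells, the groups being 0.008 apart. It differed by -2.01 ± 0.62 (SE, limma, adjusted p of 0.12). Ccl1 and Ccl22 lay under the background mark on all arrays.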
